A study of Mus musculus with 4 samples.

Results

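Mitosis and chromosome segregation were followed here through 42 genes, chosen by name because their products drive entry into mitosis, compact and separate the chromosomes, or divide the cell. All 42 were present among the 35798 named genes of the count table, and all 42 were among the 13822 genes that passed the filter on low counts. RNA was sequenced from Ly49H+ NK cells, the subset whose activating receptor recognizes mouse cytomegalovirus (MCMV), and the comparison asks whether transcripts of cell division differ in these cells when TNFR2, a receptor for TNFα, is missing. Cells came from wild-type mice that carry the CD45.1 allele and from TNFR2 KO mice that carry CD45.2, a strain that lacks the receptor in the whole body and not only in NK cells. Donor cells of both genotypes were transferred together into NSG mice, which lack lymphocytes of their own but keep myeloid cells, and the hosts were infected with MCMV a day later. NK cells were enriched from the spleens and sorted on D3.5 after infection. Every library came from the pooled spleens of 3 hosts, with 2 libraries per genotype. Libraries of either genotype that share a replicate number were taken to share their hosts and are called a pool below. The study's text does not state that pairing, nor whether the duplicates came from separate pools. The design does not separate genotype from the CD45 allele or the gate of the sort, and they cannot be told apart. The study describes a single experiment in duplicate, so p-values measure the spread between these duplicates, which may be partly technical.

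Progress through mitosis depends on cyclin B bound to CDK1, which phosphorylates the proteins that condense chromosomes and build the spindle. Aurora and Polo-like kinases correct the attachment of chromosomes to the spindle, and the spindle checkpoint holds the anaphase-promoting complex inactive until every chromosome is attached. Cdc20 then turns that complex on, securin and cyclin B are destroyed, and the central spindle directs cytokinesis. Most of these genes are transcribed in G2 and M phase, so their mRNA is abundant in dividing cells and scarce in resting ones, and virus-specific NK cells divide rapidly in the first days of MCMV infection.

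Values are given as CPM, the estimated count of a gene relative to the TMM-scaled size of its library, and every log2-fold change compares TNFR2 KO with wild-type. A gene is said to have risen or fallen only when its adjusted p was under 0.05 in the quasi-likelihood test of edgeR, adjusted after Benjamini and Hochberg over all 13822 genes. Tnfrsf1b, which encodes TNFR2, was at 264.7 and 268.6 CPM in wild-type and at 55.1 and 58.6 CPM in TNFR2 KO libraries (log2-fold change -2.23, standard error 0.0352). The libraries held 32713256 to 39543650 counts, and the spread that edgeR estimated between replicates was small, with a biological coefficient of variation of 3.33%. Duplicates still differed by more than sampling noise, with a mean chi-square per mitosis gene of 2.85 between the wild-type and 3.19 between the TNFR2 KO libraries. The 42 genes were well covered, with 725 to 40680 counts per gene and library and a median wild-type level of 161.8 CPM, against 22.6 CPM for all genes tested.

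Transcripts of the 42 chosen mitosis genes were on the whole slightly lower in the TNFR2 KO libraries. Among 132 further mitosis genes, given below, 22.7% fell and 10.6% rose. Of the 42 genes, 23 fell (54.8%), 2 rose (4.76%) and 17 passed the test in neither direction. Across all genes tested, 26.2% fell and 24.2% rose. Among the 8763 genes that averaged at least 10 CPM, a level that every mitosis gene exceeded, 23.4% fell and 33.4% rose. The smallest of these decreases was in Birc5, which fell by 5.13%, and the largest in Pttg1, which fell by 29.4%, and at the median of the 23 a gene fell by 10.8%. Their sizes were modest, since 1 gene, Pttg1, also passed an absolute log2-fold change of 0.5, a limit that 21.2% of all genes tested passed, and 0 of 42 passed 1, against 13.3%. The median log2-fold change of the 42 genes was -0.10, with quartiles of -0.17 and -0.03, beside -0.003 for all genes tested, whose quartiles were -0.29 and 0.18.

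Both TNFR2 KO libraries lay below both wild-type libraries for 32 of the 42 genes (76.2%, against 37.7% of all genes tested) and above both for 3 (7.14%, against 36.4%), while 7 overlapped. All 23 genes that fell were among the 32. Within pools, 34 genes were lower in TNFR2 KO in both, 3 were higher in both and 5 differed in sign, where 5699, 5547 and 2570 of all 13822 genes tested did so. The median log2 ratio was -0.12 in pool 1 and -0.10 in pool 2. The genotype difference exceeded the gap between replicates of either genotype for 31 of the 42 genes, and for 64.6% of all genes tested. Summed over the 42 genes, the wild-type libraries held 8744 and 8674 CPM and the TNFR2 KO libraries 8191 and 8160 CPM. For 41 of the 42 genes the 95% interval of the log2-fold change lay within 0.5 of 0, as it did for 7637 of all 13822 genes tested, most of them less abundant. These intervals come from the fit with TMM scaling and carry no error of the scaling itself. With libraries scaled on NK lineage genes instead, all 42 genes passed an absolute log2-fold change of 0.5, and their median was -0.74. In a bulk sample, fewer dividing cells and less RNA of a gene per dividing cell cannot be told apart.

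**Figure D1:**
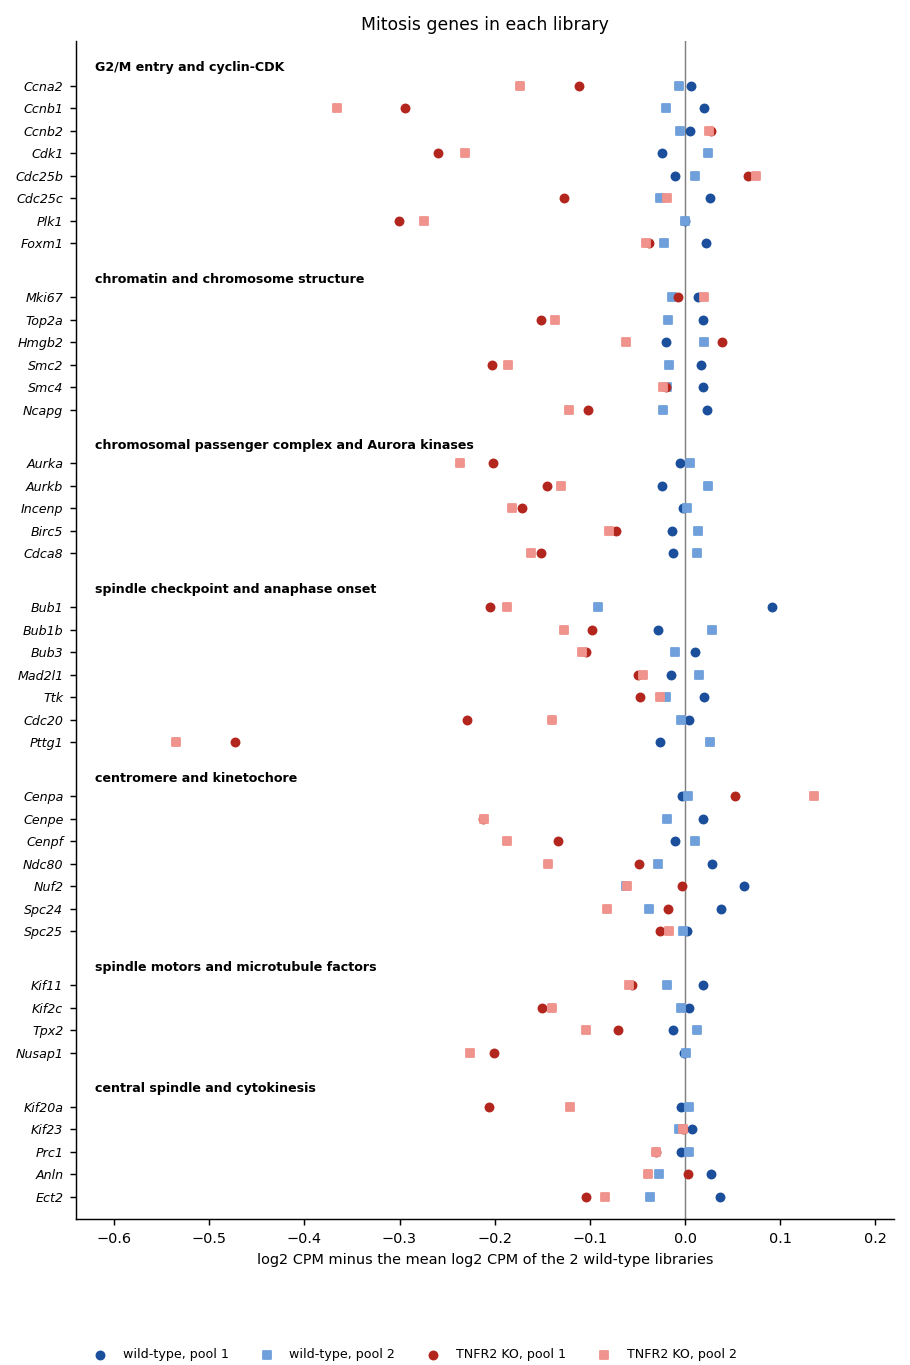
Level of each of the 42 mitosis genes in each library, as log2 CPM minus the mean log2 CPM of the 2 wild-type libraries (horizontal axis), with genes grouped by role and colours and shapes marking genotype and pool. Both TNFR2 KO points lie to the left of both wild-type points for 32 genes and to the right for 3 (Cdc25b, Ccnb2 and Cenpa).

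Markers of several other cell types moved with genotype much further than the mitosis genes. All marker lists are given here because every comparison below shares them. The sort targeted NK cells, and 40 of 46 NK lineage genes rose while 2 fell, with a median log2-fold change of 0.66 and sums of 18084 to 18102 CPM in wild-type and 28081 to 28161 CPM in TNFR2 KO. Of 25 macrophage or monocyte markers, 23 fell and 2 rose, with sums of 3573 to 3660 CPM in wild-type and 1376 to 1388 CPM in TNFR2 KO. The 2 that rose were Ccr2, at means of 394 and 678 CPM, and Ly6c2, at 262 and 314 CPM. They made up most of the TNFR2 KO sum, so the sums understate the fall of the other 23. The median log2-fold change of the list was -2.91. All 15 granulocyte precursor or neutrophil markers tested fell, from 1037 to 1054 CPM down to 95 to 99.2 CPM, with Mpo, the myeloperoxidase of granulocyte precursors, at a log2-fold change of -6.50. Of 10 mast cell or basophil markers, 9 fell and 1 rose, and the sums were 1315 to 1320 CPM and 115 to 116 CPM. The 1 that rose made up most of the TNFR2 KO sum, so here too the sums understate the fall of the other 9.

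Dendritic cell or class II markers summed to 1762 to 1799 CPM in wild-type and 154 to 155 CPM in TNFR2 KO, and 6 of 10 fell. Erythroid markers summed to 475 to 478 CPM and 409 to 416 CPM, with 11 of 13 lower and Car2 higher. Car2, at means of 171 and 337 CPM, made up most of the TNFR2 KO sum, so the sums understate the fall of the others. The median log2-fold change of the erythroid list was -1.38. Megakaryocyte or platelet markers were at 41.4 to 43.7 CPM and 4.50 to 5.71 CPM in sum, and 7 of the 8 tested fell. T cell markers summed to 1481 to 1488 CPM and 1349 to 1382 CPM, with 7 of 11 lower and 2 higher. For B cells the sums were 42 to 43.2 CPM and 48.4 to 51.3 CPM, with 2 of 3 tested markers lower and 1 higher, and for stromal or endothelial cells 111 to 116 CPM and 135 to 137 CPM, with 3 of 6 lower and 1 higher. In each of these lists the marker that rose made up most of the sum in either genotype. Among the markers at 0 in at least 1 library were Pax5, Fcnb, Treml1 and Pdgfra, and 0 markers were at 0 in all 4. Their part in the differences of the mitosis genes was not tested. The 42 mitosis genes summed to 0.480 to 0.483 of the NK lineage sum in wild-type and to 0.291 of it in both TNFR2 KO libraries. That sum leaned on its most abundant genes, led by Gzmb, whose mean rose from 3876 to 6540 CPM (log2-fold change 0.75). Changes across the list were uneven, with quartiles of 0.35 and 0.96. Its 4 genes not called included Gata3 at -0.01 and Il12rb2 at 0.01. Scaling on NK lineage genes rests on the same list. Mitosis RNA per NK cell was not measured, and the weight of single genes in this ratio was not tested.

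**Figure D2:**
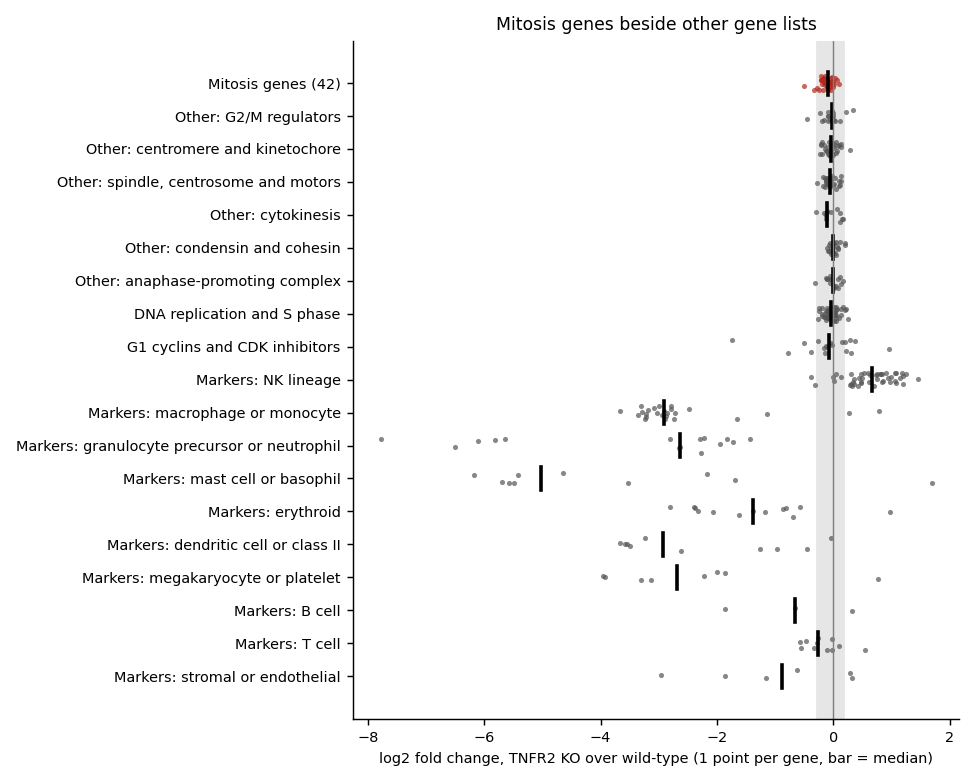
Log2-fold change, TNFR2 KO against wild-type (horizontal axis), for the 42 mitosis genes in red and for other gene lists in grey, with 1 point per gene, a bar at each median and a band over the middle 50% of all genes tested. The mitosis genes lie between -0.50 and 0.09, whereas the medians of the macrophage, granulocyte and mast cell lists are -2.91, -2.63 and -5.03 and that of NK lineage genes is 0.66.

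Entry into mitosis separated into genes that fell and genes that did not. Of the 8 genes of this step, 4 fell (Ccna2, Ccnb1, Cdk1 and Plk1), 1 rose (Cdc25b) and 3 passed in neither direction. Ccnb1 encodes cyclin B1, the main partner of CDK1 at mitotic entry. It was at 212 and 206 CPM in wild-type and at 170.2 and 162 CPM in TNFR2 KO libraries. The groups did not overlap, and the log2-fold change was -0.33 (standard error 0.0321, adjusted p = 3.28e-06 by edgeR), a decrease of 20.4%. Cdk1, the kinase itself, was at 161 and 167 CPM against 137 and 139.6 CPM (log2-fold change -0.25, standard error 0.0314, adjusted p = 3.43e-05 by edgeR). Plk1, the Polo-like kinase that promotes CDK1 activation and spindle assembly, stood at 193 CPM in both wild-type libraries and at 157 and 159.7 CPM in TNFR2 KO. Its log2-fold change was -0.29 (standard error 0.0283, adjusted p = 3.49e-06 by edgeR). Ccna2, cyclin A2 of S and G2 phase, was at 392 and 389 CPM against 362 and 347 CPM (log2-fold change -0.14, standard error 0.0274, adjusted p = 0.000981 by edgeR).

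Ccnb2, the second B-type cyclin, did not follow Ccnb1. It was at 182 and 181 CPM in wild-type and at 185 and 185 CPM in TNFR2 KO, with a log2-fold change of 0.03 and a 95% interval from -0.03 to 0.09 (adjusted p = 0.467 by edgeR), and its sign turned with library size alone (-0.035) and with scaling on NK lineage genes (-0.61). Within each library, Ccnb1 was at 1.16 and 1.14 times the CPM of Ccnb2 in wild-type and at 0.919 and 0.877 times in TNFR2 KO, a ratio that no scaling of the libraries can change. Cdc25b, a phosphatase that removes the inhibitory phosphates from CDK1, rose from 347 and 352 CPM to 366 and 368 CPM (log2-fold change 0.07, standard error 0.0247, adjusted p = 0.0322 by edgeR), though scaling on NK lineage genes turned its sign (-0.57). That call was lost without wild-type replicate 1 (adjusted p = 0.124 by edgeR) and without TNFR2 KO replicate 2 (adjusted p = 0.0618 by edgeR), as well as with library size alone (adjusted p = 0.782) and with genes averaging at least 10 CPM (adjusted p = 0.261). Cdc25c, a phosphatase of the same family, was the least abundant of the 42 genes at 25.8 and 24.8 CPM against 23.2 and 25 CPM, and its groups overlapped. Foxm1, a transcription factor of G2/M genes, was at 145 and 141 CPM against 139 and 139 CPM (log2-fold change -0.04, 95% interval -0.11 to 0.03).

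Promoters of 33 of the 42 genes were matched by symbol to the RefSeq table of GRCm38.p6, with 36 start sites in all and 300 bases each, 250 before the start and 50 after it. Aurkb, Ccna2, Cdc25c, Foxm1, Incenp, Kif20a, Smc4, Spc24 and Tpx2 had no match. Both strands were searched for TTTGAA, the core of the cell cycle genes homology region (CHR) that binds the DREAM and MuvB complexes, for its variant TTTAAA, and for CCAAT, the box of NF-Y. TTTGAA reads TTCAAA and CCAAT reads ATTGG on the other strand, TTTAAA is its own complement, and no 2 of the motifs can begin at the same base on the same strand. The promoters of the B-type cyclins, Cdk1 and Plk1 are shown because these genes stood apart in the comparison above. Each is written 5′ to 3′ on the strand of its gene, with motif matches in capitals.
Ccnb1 chr13:100786437-100786736 (minus strand): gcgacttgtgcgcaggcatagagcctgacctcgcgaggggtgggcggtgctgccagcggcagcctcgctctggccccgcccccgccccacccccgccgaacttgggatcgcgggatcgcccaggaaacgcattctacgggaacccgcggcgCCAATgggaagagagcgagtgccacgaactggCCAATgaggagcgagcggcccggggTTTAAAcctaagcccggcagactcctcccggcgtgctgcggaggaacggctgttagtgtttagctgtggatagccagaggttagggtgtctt
Ccnb2 chr9:70421505-70421804 (minus strand): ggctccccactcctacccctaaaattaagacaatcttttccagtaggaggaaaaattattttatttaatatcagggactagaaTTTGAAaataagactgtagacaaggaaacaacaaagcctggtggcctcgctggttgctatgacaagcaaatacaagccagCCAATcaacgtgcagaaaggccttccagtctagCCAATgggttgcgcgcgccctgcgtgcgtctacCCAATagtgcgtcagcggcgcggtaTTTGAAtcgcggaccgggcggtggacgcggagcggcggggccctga
Cdk1 chr10:69352863-69353162 (minus strand): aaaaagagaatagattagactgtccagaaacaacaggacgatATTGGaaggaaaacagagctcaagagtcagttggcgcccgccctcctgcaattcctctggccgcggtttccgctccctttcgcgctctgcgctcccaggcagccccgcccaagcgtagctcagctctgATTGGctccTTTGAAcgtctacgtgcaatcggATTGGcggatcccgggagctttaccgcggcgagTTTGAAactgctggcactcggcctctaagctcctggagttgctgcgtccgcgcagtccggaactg
Plk1 chr7:122159185-122159484 (plus strand): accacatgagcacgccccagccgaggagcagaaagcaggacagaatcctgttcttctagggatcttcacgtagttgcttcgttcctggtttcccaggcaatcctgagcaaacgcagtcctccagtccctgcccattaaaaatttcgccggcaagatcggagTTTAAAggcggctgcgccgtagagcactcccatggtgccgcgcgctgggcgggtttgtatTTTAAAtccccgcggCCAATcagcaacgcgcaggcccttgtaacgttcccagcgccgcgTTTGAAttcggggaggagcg

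Cyclin B1, which fell, and cyclin B2, which did not, differ in these windows. The Ccnb1 promoter holds 0 TTTGAA, 1 TTTAAA and 2 CCAAT, whereas that of Ccnb2 holds 2 TTTGAA, 0 TTTAAA and 3 CCAAT. The Cdk1 promoter holds 2 TTTGAA and 3 CCAAT, all 3 of the latter in the reverse orientation, and that of Plk1 holds 1 TTTGAA, 2 TTTAAA and 1 CCAAT. A match to these letters does not show that a factor binds there.

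Bub3, Ect2 and Prc1 each gave 2 overlapping windows, so their matches count more than once in shares of promoters. Per gene, TTTGAA was in 24 of 33 (72.7%) and CCAAT in 25 of 33 (75.8%), against 14.8% and 43.4% of matched genes tested. Across the mitosis genes, TTTGAA occurred in 27 of 36 promoters (75%) and in 17.9% of all 32851 promoters of the table. CCAAT occurred in 28 (77.8%, against 37.4%), at least 2 CCAAT in 18 (50%, against 11.7%), both TTTGAA and CCAAT in 24 (66.7%, against 6.95%), and TTTAAA in 9 (25%, against 13.2%). Shares are also given apart for the genes that fell and those not called, as a description. TTTGAA was in 13 of 19 promoters of genes that fell (68.4%) and in 13 of 15 of those not called (86.7%), and CCAAT was in 15 of 19 (78.9%) and 11 of 15 (73.3%). TTTAAA was in 7 of 19 (36.8%) and 1 of 15 (6.67%). Neither TTTGAA nor CCAAT was found in the windows of Birc5, Mad2l1, Nuf2, Nusap1 and Pttg1, of which Birc5, Nusap1 and Pttg1 fell. The Pttg1 window, chr11:43425932-43426231 on the minus strand, lies inside the gene as GENCODE places it (43420250 to 43426251). Bases before that GENCODE start were not searched. Position was biased as well. Between the start site and 50 bases after it, 41.7% of the mitosis gene promoters held a TTTGAA, against 2.38% of all promoters, and CCAAT was most frequent in the 50 bases before the start, in 47.2% against 9.22%.

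**Figure D3:**
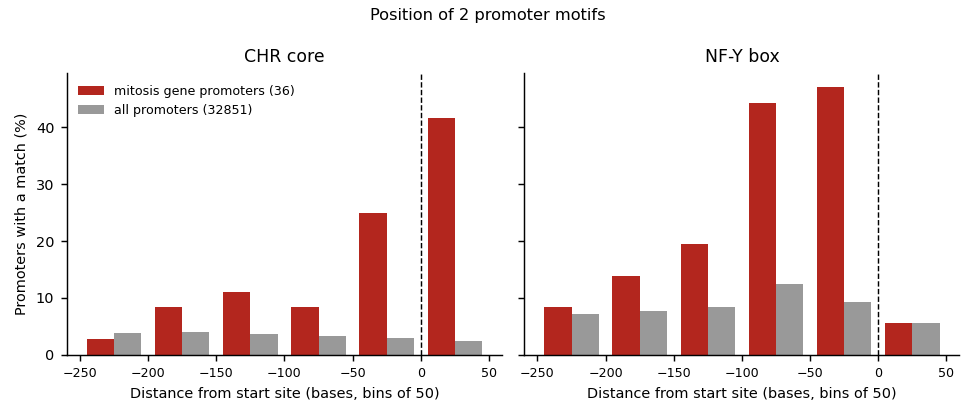
Share of promoters (vertical axis, percent) with a match in each 50-base bin by distance from the start site (horizontal axis, bases), for the CHR core at left and the NF-Y box at right, in 36 promoters of mitosis genes (red) and all 32851 promoters (grey). In the bin after the start the CHR core is in 41.7% of the mitosis gene promoters and 2.38% of all, and in the bin before it the NF-Y box is in 47.2% and 9.22%.

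Genes of chromosome structure were divided too, with 3 of 6 lower and 3 not called. Top2a encodes the topoisomerase that disentangles sister DNA, and it was the most abundant of the 42 at 1073 and 1046 CPM in wild-type and 953 and 963 CPM in TNFR2 KO. The groups did not overlap (log2-fold change -0.14, standard error 0.0227, adjusted p = 0.000202 by edgeR). Mki67, the proliferation marker that coats mitotic chromosomes, was nearly as abundant, at 994 and 975 CPM against 979.7 and 998 CPM. Its groups overlapped, and the 95% interval of its log2-fold change ran from -0.04 to 0.06. Relative to Mki67 in the same library, Top2a was at 1.08 and 1.07 in wild-type and 0.973 and 0.965 in TNFR2 KO. Cdk1 was at 0.162 and 0.171 of the Mki67 level against 0.140 in both TNFR2 KO libraries, and Pttg1 at 0.0324 and 0.0342 against 0.0241 and 0.0227.

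Condensin showed a similar split. Smc2 and Smc4 encode the paired ATPases of the complex that compacts chromosomes. Smc2 was at 282 and 275 CPM against 242 and 245 CPM (log2-fold change -0.19, standard error 0.0269, adjusted p = 6.86e-05 by edgeR), and Smc4 at 414 and 403 CPM against 403 and 402 CPM (log2-fold change -0.02, 95% interval -0.08 to 0.03). The Smc2 to Smc4 ratio was 0.681 and 0.683 in wild-type and 0.601 and 0.609 in TNFR2 KO. Ncapg, a regulatory subunit of condensin I, was at 131 and 127 CPM against 119.8 and 118 CPM. It fell by 7.46%, but not without wild-type replicate 1 (adjusted p = 0.153 by edgeR). Hmgb2, a chromatin protein that bends DNA, was at 635 and 652 CPM against 661 and 616 CPM, and its groups overlapped.

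Aurora kinases and the chromosomal passenger complex were lower throughout, as all 5 genes fell. This complex joins Aurora B to Incenp, survivin and borealin and frees faulty attachments at the centromere. Aurka, the Aurora kinase of the spindle poles, was at 87.4 and 88 CPM in wild-type and at 76.2 and 74.4 CPM in TNFR2 KO (log2-fold change -0.22, standard error 0.0366, adjusted p = 0.000331 by edgeR). The scaffold gene Incenp was at 246 CPM in both wild-type libraries and at 219 and 217 CPM in TNFR2 KO (log2-fold change -0.18, standard error 0.0264, adjusted p = 0.000131 by edgeR). Neither gene's groups overlapped. Borealin, encoded by Cdca8, was at 135 and 138 CPM against 123 and 122 CPM and fell by 10.3%. Aurkb was at 131 and 136 CPM against 121 and 122 CPM (log2-fold change -0.14), a call lost without wild-type replicate 2 (adjusted p = 0.0559 by edgeR). Survivin, encoded by Birc5, had the smallest change, at 175 and 178 CPM against 168 and 167 CPM (log2-fold change -0.08, standard error 0.0286, adjusted p = 0.0432 by edgeR). Its call was lost whichever of the 4 libraries was left out, with log2-fold changes of -0.08 to -0.05 and adjusted p from 0.107 to 0.289 by edgeR.

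At the step where the checkpoint releases anaphase, 5 of 7 genes fell and both TNFR2 KO libraries lay below both wild-type libraries for all 7. Pttg1 had the largest change of the 42. It encodes securin, the inhibitor of separase that must be destroyed before sister chromatids part. Its levels were 32.2 and 33.4 CPM in wild-type and 23.6 and 22.6 CPM in TNFR2 KO, on 725 to 1231 counts per library. The groups were well apart, and the log2-fold change was -0.50 (standard error 0.0573, 95% interval -0.63 to -0.38, adjusted p = 1.34e-05 by edgeR), a decrease of 29.4%. Cdc20, the activator of the anaphase-promoting complex, was at 153 and 152 CPM against 130.3 and 139 CPM. It fell by 12.0% (log2-fold change -0.19, standard error 0.0349, adjusted p = 0.000803 by edgeR), and the gap between its TNFR2 KO libraries was wider than that between its wild-type libraries.

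Genes of the checkpoint itself gave 3 that fell and 2 not called. Bub1, a kinase that gathers checkpoint proteins at the kinetochore, was at 94.2 and 83 CPM against 76.8 and 77.7 CPM. Its wild-type libraries were the most widely spaced of any of the 42 genes, and the log2-fold change of -0.20 (adjusted p = 0.00736 by edgeR) became -0.10 without wild-type replicate 1 (adjusted p = 0.135 by edgeR). Bub1b, which encodes BubR1 of the mitotic checkpoint complex, was at 167 and 174 CPM against 159.5 and 156 CPM and fell by 7.48%. Bub3, the partner of both, was at 175 and 173 CPM against 162 and 161 CPM and fell by 7.09%. Those decreases did not pass without wild-type replicate 2 for Bub1b (adjusted p = 0.144 by edgeR) and without wild-type replicate 1 for Bub3 (adjusted p = 0.0848 by edgeR). Mad2l1, which encodes the inhibitor that binds Cdc20, was at 121 and 123 CPM against 118 and 119 CPM (log2-fold change -0.05, 95% interval -0.12 to 0.02). Ttk, the Mps1 kinase at the head of the checkpoint, was at 36 and 35 CPM against 34.4 and 34.9 CPM (log2-fold change -0.04, 95% interval -0.15 to 0.07).

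Centromere and kinetochore genes were mixed, with 2 lower, 1 higher and 4 not called of 7. Cenpe encodes the kinesin that carries chromosomes to the spindle equator, and it was at 183 and 179 CPM in wild-type and at 156 CPM in both TNFR2 KO libraries (log2-fold change -0.21, standard error 0.0293, adjusted p = 6.73e-05 by edgeR). Cenpf, a large protein of the outer kinetochore, was at 113 and 114 CPM against 104 and 99.8 CPM and fell by 0.16 on the log2 scale. Cenpa, the histone H3 variant that marks the centromere, moved the other way, from 176 and 177 CPM to 183 and 194 CPM (log2-fold change 0.09, standard error 0.0324, adjusted p = 0.0309 by edgeR), though scaling on NK lineage genes turned its sign (-0.54). Its increase did not pass without either wild-type replicate or without TNFR2 KO replicate 2, with log2-fold changes of 0.06 to 0.11 and adjusted p from 0.0534 to 0.216 by edgeR, nor with DESeq2 (adjusted p = 0.0654), library size alone (0.445) or genes averaging at least 10 CPM (0.135). The 4 genes of the Ndc80 complex, which grips the microtubule, were the ones not called. Ndc80 was at 72 and 69.2 CPM against 68.2 and 63.9 CPM, with a log2-fold change of -0.09 (95% interval -0.19 to 0.003), and it passed without TNFR2 KO replicate 1 (adjusted p = 0.0338 by edgeR). Nuf2, Spc24 and Spc25 had log2-fold changes of -0.03, -0.05 and -0.02, and their intervals reached from -0.15 to 0.08.

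Among spindle motors and microtubule factors, 3 of 4 genes fell. Nusap1, which bundles spindle microtubules near the chromosomes, was at 172 CPM in both wild-type libraries and at 149.7 and 147 CPM in TNFR2 KO (log2-fold change -0.21, standard error 0.029, adjusted p = 6.24e-05 by edgeR). Kif2c, a kinesin that takes microtubules apart at the centromere, was at 78.2 and 77.8 CPM against 70.3 and 70.8 CPM and fell by 9.58%. Replicates of these genes lay close together and far from the other genotype. Tpx2, an activator of Aurora A on the spindle, was at 216 and 219.6 CPM against 207 and 203 CPM. It fell by 5.85%, a call lost without either wild-type replicate or without TNFR2 KO replicate 2, with log2-fold changes of -0.09 to -0.07 and adjusted p from 0.0592 to 0.181 by edgeR. Kif11, the motor that pushes the spindle poles apart, was at 162 and 158 CPM against 154 CPM in both TNFR2 KO libraries (log2-fold change -0.06, 95% interval -0.12 to 0.01).

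Of the 5 genes of the central spindle and cytokinesis, 1 fell, and their median log2-fold change was -0.03. Kif20a, a kinesin of the central spindle, was at 163 and 164 CPM against 142 and 150.4 CPM and fell by 10.8% (log2-fold change -0.16, standard error 0.0337, adjusted p = 0.00149 by edgeR). Kif23, the kinesin of the centralspindlin complex, was at 128 and 126 CPM in wild-type and at 127 CPM in both TNFR2 KO libraries (95% interval of the log2-fold change -0.07 to 0.07). Prc1, which cross-links the central spindle, was at 209 and 211 CPM against 206 and 205 CPM. Anln, the actin-binding protein of the cleavage furrow, was at 53.5 and 51.5 CPM against 52.6 and 51.1 CPM, and its groups overlapped. Ect2, which activates RhoA at the furrow, was at 84.5 and 80.3 CPM against 76.7 and 77.7 CPM, and its log2-fold change of -0.09 had an adjusted p of 0.0644 by edgeR. Over the 17 of the 42 genes that were not called, log2-fold changes ran from -0.09 to 0.03, 15 of them negative, and the 95% intervals from -0.21 to 0.09.

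**Figure D4:**
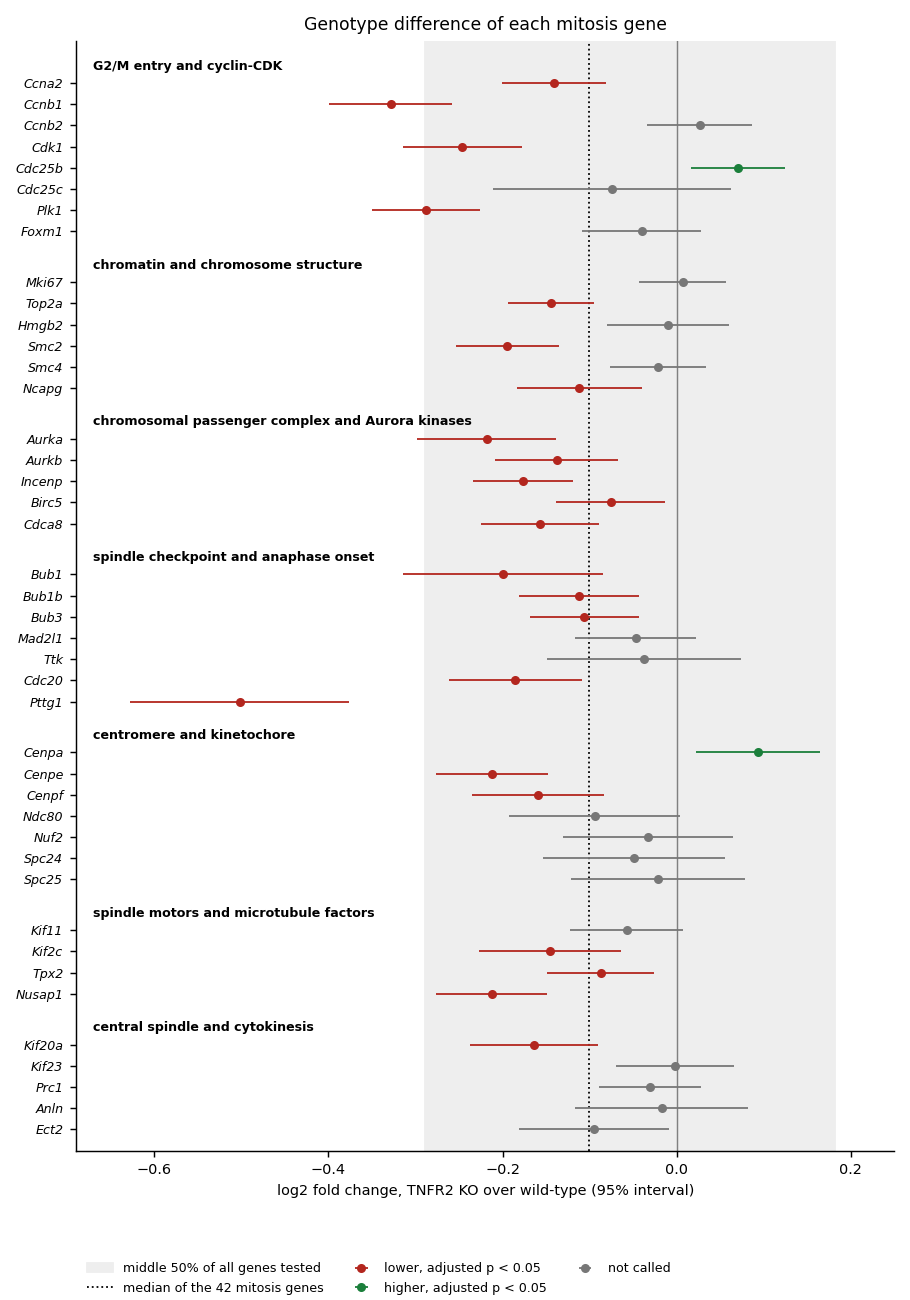
Log2-fold change, TNFR2 KO against wild-type, with its 95% interval (horizontal axis) for each of the 42 mitosis genes, grouped by role and coloured by call, with a band over the middle 50% of all genes tested and a dotted line at the median of the 42 genes. The 23 genes that fell lie between -0.50 for Pttg1 and -0.08 for Birc5, and the 2 that rose are Cdc25b at 0.07 and Cenpa at 0.09, both below 0 when scaled on NK lineage genes.

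Part of the sequence of some mitosis genes also occurs in other genes, which can move reads between them. When each gene was cut into 31-base stretches, 14 of the 42 shared over 5% with other genes of GRCm38. Ccnb1 shared 22.9% with the pseudogene Ccnb1-ps, which had 0 to 6 counts per library. Plk1 shared 14.8% with Plk-ps1, which had 0 counts in every library, and Cdc20 shared 23.4% with Gm7856, which had 0 to 1. These processed copies therefore received few counts. Hmgb2 shared 18.0% with Gm4739, which had 18650 to 23439 counts, and the log2 ratio of their summed CPM was 0.04, beside the fitted -0.01 for Hmgb2, so the level of Hmgb2 is uncertain. Kif20a shared 26.7% with the overlapping gene Cdc23, Ccna2 11.8% with Exosc9 and Ncapg 12.4% with Lcorl, and with the partner's CPM added their log2 ratios were -0.13, -0.12 and -0.12. Cdc25c shared 11.8% with Gm3550, and its log2 ratio was -0.12 with that gene added, beside the fitted -0.07. The counting is not stated to have used strand, and reads of overlapping genes are uncertain.

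Levels per kilobase of the longest coding transcript spread widely among the 42 genes, from 10.2 CPM per kilobase for Cenpf to 244.8 for Hmgb2 in wild-type, with a median of 46.3 in wild-type and 40.9 in TNFR2 KO. The genes lie on 15 chromosomes.

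A list of 132 further genes of the mitosis machinery held 30 that fell (22.7%), 14 that rose (10.6%) and 88 that were not called, with a median log2-fold change of -0.04 and 0 genes past 0.5. The share that fell was below the 26.2% of all genes tested. By role, 10 of 29 spindle, centrosome and motor genes fell and 1 rose, and 6 of 13 cytokinesis genes fell and 4 rose. Centromere and kinetochore genes gave 6 lower and 1 higher of 33, G2/M regulators 4 and 2 of 19, genes of the anaphase-promoting complex 3 and 2 of 17, and condensin and cohesin genes 1 and 4 of 21. The number that fell was smaller with any library left out, as was the share of all genes tested that fell. Relative to the summed CPM of this list, the 42 mitosis genes were at 0.711 in both wild-type libraries and at 0.676 and 0.671 in TNFR2 KO.

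Among those called, the 5 lowest of these further genes were Melk, Ube2c, Iqgap3, Clasp1 and Cdc25a. Melk, a kinase of dividing cells, was at 58.4 and 57.3 CPM in wild-type and at 42.7 and 42.1 CPM in TNFR2 KO (log2-fold change -0.45, standard error 0.0445, adjusted p = 3.73e-06 by edgeR). Ube2c, the ubiquitin-conjugating enzyme of the anaphase-promoting complex, was at 241 and 242 CPM against 191 and 197 CPM (log2-fold change -0.31, standard error 0.0282, adjusted p = 1.51e-06 by edgeR). Neither gene's groups overlapped. Iqgap3, a scaffold protein, Clasp1, which stabilizes microtubules, and Cdc25a, a further CDK phosphatase, had log2-fold changes of -0.31, -0.27 and -0.24. The 5 highest were Lin52 at 0.33, Cenpx at 0.29, Lin37 at 0.22, Esco1 at 0.20 and Mau2 at 0.19. Lin52 and Lin37 are subunits of the MuvB complex that binds CHR elements, Cenpx is a centromere protein, and Esco1 and Mau2 act on cohesin.

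Genes of DNA replication and S phase were the nearest comparison outside mitosis. Of 54 tested, 17 fell (31.5%), 7 rose (13%) and 30 were not called, with a median log2-fold change of -0.04. Among all genes tested, 26.2% fell and 24.2% rose. The number that fell in this list was smaller when a library was left out, as was the share over all genes tested. Among those called, Orc1, of the origin recognition complex, was lowest at 17.5 and 18.8 CPM against 14.7 and 15.4 CPM, and Rpa2, which binds single-stranded DNA, was highest at 78.8 and 78.4 CPM against 95.1 and 91.2 CPM. The summed mitosis genes were at 1.24 and 1.23 times the summed S-phase genes in wild-type and at 1.18 and 1.19 times in TNFR2 KO. Of 18 G1 cyclins and CDK inhibitors, 7 fell (38.9%) and 6 rose (33.3%). Ccnd1, cyclin D1, was lowest at 3.64 and 3.42 CPM against 1.01 and 1.09 CPM (log2-fold change -1.75), and Rbl2, the pocket protein p130 of the DREAM complex, was the highest of those called at 222 and 231 CPM against 294.7 and 288 CPM (log2-fold change 0.36).

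The calls depended on how libraries were scaled, since the changes were small. With library size alone in place of TMM, 30 of the 42 genes fell and 0 rose, and the split of all genes tested moved to 31.7% lower and 17.5% higher. With scaling on NK lineage genes, all 42 fell, as did 83.1% of all genes tested, and the all-gene median moved by -0.64 on the log2 scale. When genes averaging under 10 CPM were dropped and the libraries scaled anew, 28 fell and 0 rose, beside 28.6% and 28.3% of the 8765 genes left. DESeq2 gave 20 lower and 1 higher, with 20.7% and 18.5% over all genes. The calls it lost were those of Birc5, Ncapg, Tpx2 and Cenpa, with DESeq2 adjusted p of 0.145, 0.055, 0.0595 and 0.0654. Genes that fell in all 12 alternatives were Ccna2, Ccnb1, Cdk1, Plk1, Top2a, Smc2, Aurka, Incenp, Cdca8, Cdc20, Pttg1, Cenpe, Cenpf, Kif2c, Nusap1 and Kif20a. The share of all genes tested that did so was not computed.

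**Figure D5:**
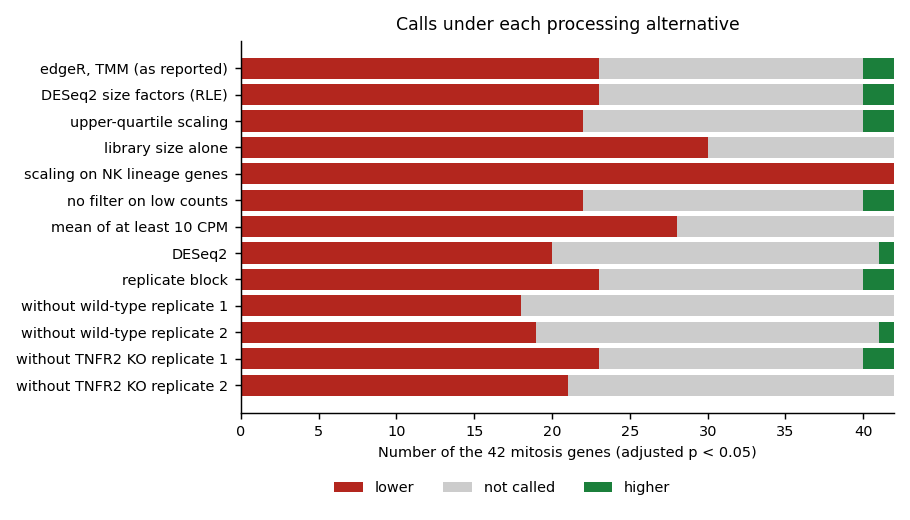
Number of the 42 mitosis genes (horizontal axis) that were lower, not called or higher at an adjusted p under 0.05, for the reported fit and each of 12 alternatives. Among fits on all 4 libraries, the number lower runs from 20 with DESeq2 to 42 with scaling on NK lineage genes, and the number higher from 0 to 2. With a library left out, 1 group holds a single library, and a smaller share of all genes tested passed as well.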

How the data were processed

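RNA from 2 wild-type and 2 TNFR2 KO libraries, from pools of 3 mice, was sequenced as poly-A selected, strand-specific, paired-end reads. The authors used Trimmomatic (1.4) for trimming and Kallisto (0.46.1) for assignment to mm10 transcripts, summed the estimates per gene with Tximport and deposited estimated counts (expected counts) per gene symbol, unscaled. The transcript annotation and Kallisto's strand setting are not given in the sources used here. Fractional assignment of shared reads can move counts between related genes. A row with no gene name (0.0559% to 0.0728% of counts) was left out.

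Counts were rounded, filtered with filterByExpr (13822 genes kept; 14780 of the 35798 named genes had 0 counts throughout), scaled with TMM and compared by the quasi-likelihood test of edgeR 4.0.16 in R 4.3.3, with no term but genotype and p-values adjusted by Benjamini-Hochberg over all genes. The steps were tested on simulated data. At 2 libraries per genotype the smallest two-sided p of an exact permutation test is 0.333. Same-numbered libraries were taken to share hosts, which would pair the samples, although the study's text does not state it. The deviations of same-numbered libraries correlated at only 0.0487. Alternatives were DESeq2 1.42.0, 4 other scalings, 2 other filters, the replicate block, and each library left out. The study used DESeq2. The limits of 0.5 and 1 are the study's.

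The 42 genes and all other lists were chosen with earlier results of these data known. Named genes were all 42, Tnfrsf1b, the 5 lowest and 5 highest called genes of the other mitosis lists, the lowest and highest called genes of the S phase and G1 lists, and some of the most abundant markers. Markers that rose in the macrophage and erythroid lists were named too. Lin54 and Ahsp were not used here, and 1 marker is not reported here. Positions and shared sequence come from GENCODE M21, and promoters from RefSeq, both on GRCm38, which is mm10. Python 3.11.15 and matplotlib 3.10.9 drew the plots.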

Additional observations from a re-analysis of the deposited data

How the results depend on the processing

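Direction held for most mitosis genes, but calls on changes this small moved with scaling and with single libraries. With any library left out, 1 group holds a single library, and a smaller share of all genes tested passed too. The 23 lower genes became 42 with scaling on NK lineage genes. The 2 higher became 0 with library size alone, 0 with NK lineage scaling, 0 with a mean of at least 10 CPM, 1 with DESeq2, and 0 to 2 with each library left out. The 1 gene past 0.5 became 0 with upper-quartile scaling, 0 with no filter, 42 with NK lineage scaling and 0 to 1 with a library left out, and past 1 it was 1 (Pttg1, -1.14) with NK lineage scaling. The median of -0.10 was -0.16 with library size, -0.74 with NK lineage scaling, -0.14 with at least 10 CPM, and -0.11 to -0.084 with a library left out. Of the other mitosis genes, the 30 lower became 57 with library size, 132 with NK lineage scaling, 47 with at least 10 CPM, 17 with DESeq2 and 16 to 26 with a library left out, and the 14 higher became 5 with library size and 0 with NK lineage scaling. In S phase, the 17 lower became 27, 54 and 10 to 15, and the 7 higher became 3 and 0, under library size, NK lineage scaling and, for the first, a library left out. Genes that changed sign were Ccnb2 (-0.035 with library size, -0.61 with NK lineage scaling, -0.0099 with at least 10 CPM), Mki67 (-0.054, -0.63 and -0.029 in that order, and -0.0020 to 0.031 with a library left out), Cdc25b and Cenpa (-0.57 and -0.54 with NK lineage scaling), and Kif23 (0.0068 with upper-quartile scaling, 0.0034 with no filter, -0.00045 to 0.013 with a library left out). With a library left out, Hmgb2 ran from -0.052 to 0.044, Smc4 from -0.032 to 0.0056, Nuf2 from -0.084 to 0.038 and Anln from -0.036 to 0.018. Scaling sets where 0 lies; the cause of the other shifts was not tested. The paired fit, with the replicate block, gave 23 lower and 2 higher and changed 0 of the 42 calls. The mitosis genes had at least 725 counts per library, and what more depth or more libraries would change was not tested.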
